A study of Sus scrofa domesticus with 4 samples.

Results

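Calreticulin and 9 further genes of protein folding in the endoplasmic reticulum were examined in slices of pig myometrium, the muscle layer of the uterus, cultured with orexin B or without treatment. The 10 genes were listed by name, and the list was chosen by the calreticulin ratio, which had been above 0 on all 4 arrays, so the values of the listed genes below are a description and carry no test. Array probes were taken as members when their accession was a RefSeq mRNA of a listed gene. This gave 24 probes for 7 of the 10 genes, CALR, CANX, HSP90B1, PDIA4, XBP1, ATF4 and DDIT3, among 43603 probes on the array. No probe carried a RefSeq mRNA of HSPA5 (BiP), PDIA3 (ERp57) or P4HB (protein disulfide isomerase), and these 3 genes were not analysed here. All 24 probes were well above background on all 4 arrays in both channels, and all 24 passed the brightness filter, as did 19879 probes in all.

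The explants came from 4 gilts (Large White x Polish Landrace) aged 7 to 8 months on days 15 to 16 of pregnancy. Slices of about 100 mg were kept in medium for 24 h with 10 nM orexin B, and control slices were kept as long with no addition. Orexin B is a neuropeptide that signals through the orexin receptors. Each of 4 Agilent 2-colour arrays held RNA of orexin B slices and of control slices, and whether both channels of an array came from the same gilt is not given in the sources used here. The dye of the orexin B RNA was Cy5 for arrays 1 and 3 but Cy3 for arrays 2 and 4. Arrays 2, 3 and 4 shared a slide and a scan, and array 1 was alone on another slide, which therefore gives no spread of its own. Every ratio is orexin B over untreated on the log2 scale, its error is the moderated standard error over 4 arrays, and intensities are normalized spot brightness in arbitrary units. The number of arrays limits the precision.

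The endoplasmic reticulum folds secreted and membrane proteins and, in smooth muscle, also stores the calcium that is released for contraction. Calreticulin and calnexin bind the sugars of new glycoproteins, HSP90B1 (GRP94) and BiP are its Hsp90-type and Hsp70-type chaperones, and the disulfide isomerases form and rearrange disulfide bonds. When unfolded proteins accumulate, the sensors IRE1, PERK and ATF6 start the unfolded protein response, in which XBP1, ATF4 and DDIT3 (CHOP) act as transcription factors.

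With limma's adjusted p, 0 of 19879 probes (0%) were under 0.05. At an unadjusted p under 0.05 limma gave 1534 probes, 7.72% of those tested, of which 856 were higher (4.31%) and 678 lower (3.41%). The tissue label was checked against 12 smooth muscle markers: 7 were tested, and both channels of all 4 arrays read each of them well above background, among them ACTA2, DES and CNN1. Their summed intensity ran from 262690 to 723140 in the orexin B channel and from 478750 to 915150 in the untreated channel, and all 7 had a mean log2 ratio below 0, with a median of -0.49. In a slice of mixed tissue, fewer cells of a type and less RNA per cell cannot be told apart.

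The means of all 24 member probes lay above 0, against 54.1% of all tested probes, but not under every setting: the PDIA4 probe and 2 of the 6 XBP1 probes lay below 0 with median centring and without replicate 3, and the PDIA4 probe and 1 of the 6 ATF4 probes without replicate 1. The median over the 7 genes, each at its brightest probe, was 0.37 against 0.02 over 1959 genes, of which 53.8% had a mean above 0. Of the 24 probes, 5 were above 0 on all 4 arrays, 1 of CALR and 4 of HSP90B1. Over all probes 9% were above 0 on all 4 arrays and 7.14% below 0 on all 4. Because probes of 1 gene share its RNA, and because CALR was listed for this direction, nothing is read from these counts. The genes had unlike profiles over the arrays: CALR was high on every array, HSP90B1 on array 2, CANX on arrays 2 and 4, XBP1 mostly on array 3, and ATF4 on arrays 1 and 4.

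**Figure D1:**
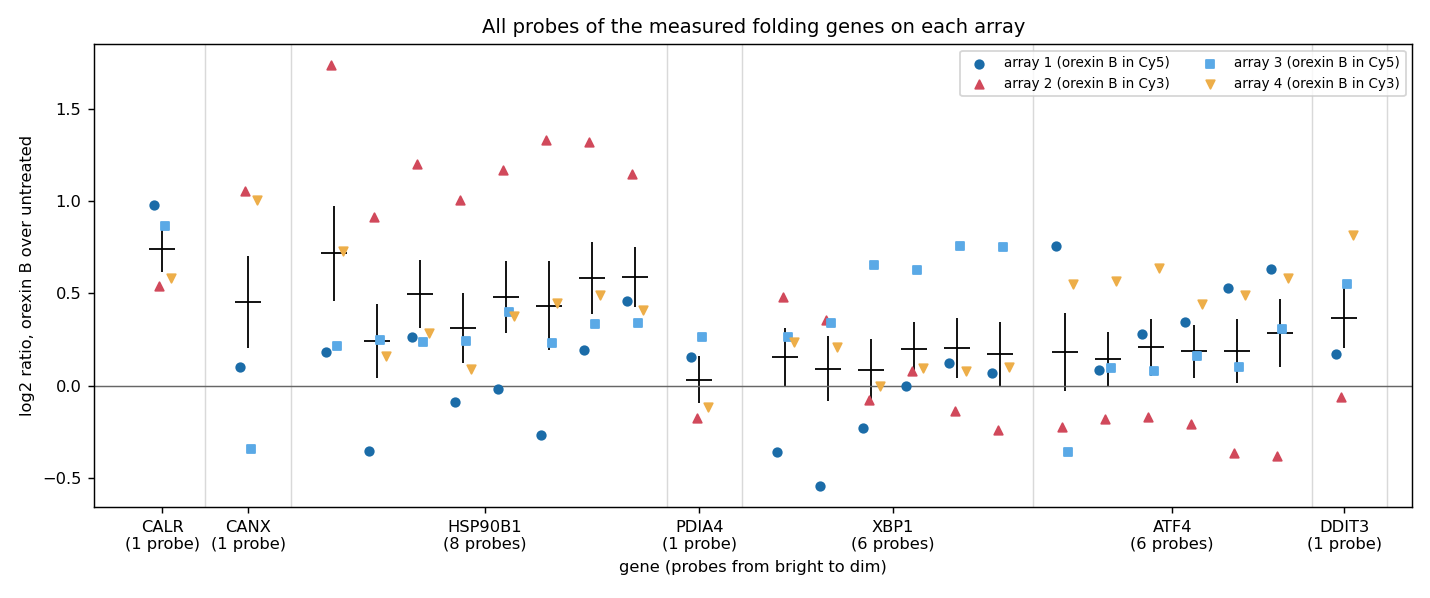
Log2 ratio of orexin B over untreated (y axis) for each of the 24 probes of 7 genes (x axis, bright to dim within a gene); coloured symbols are the 4 arrays, and the black bar and line are the mean and its moderated standard error. CALR lies between 0.54 and 0.98 on the 4 arrays, and the 8 HSP90B1 probes are highest on array 2.

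Calreticulin, the soluble calcium-binding lectin chaperone of the endoplasmic reticulum, had an intensity of 2844, 3448, 1991 and 1481 in the orexin B channel of arrays 1 to 4, against 1441, 2369, 1094 and 987 in the untreated channel. On each array the orexin B value was the higher one, while across arrays the 2 groups overlapped, since untreated slices themselves spanned a 2.40-fold range. The log2 ratios were 0.98, 0.54, 0.86 and 0.58, with a mean of 0.74 ± 0.13, or 1.67-fold. Among all tested probes this mean lay at percentile 99.4, and the single arrays at 99.7, 84.2, 99.3 and 93.7. CALR had 1 probe, so no second probe of the gene could be set beside it. Leaving out 1 array at a time gave means from 0.66 to 0.81, and the 3 arrays of the shared slide alone gave 0.66. Agilent's own processed signals gave 1.02, 0.50, 0.87 and 0.78. When arrays were only centred on their median, without the intensity-dependent loess step, the values were 1.71, -0.45, 1.27 and 0.20, so that array 2 was below 0 and the mean was 0.68. The same centring left the median of tested probes at 0.52, -0.52, 0.34 and -0.29 on arrays 1 to 4, so its values carry that shift; after loess those medians lay within 0.024 of 0.

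Lists of cell type markers were set beside CALR, among them macrophages and monocytes. Of 11 listed markers, 8 were tested and all 8 had a mean above 0, with a list median of 0.61 and array medians of 0.69, 0.08, 0.90 and 0.77. Their summed intensity was 10837, 7129, 8477 and 17053 in the orexin B channel, against 7421, 6551, 4286 and 10128 in the untreated channel of the same arrays. LYZ had a probe that did not pass the brightness filter, and C1QC passed it through the orexin B channel only. Of 4 tested endothelial markers 3 had a mean above 0 (median 0.31). Of 5 listed trophoblast markers 2 were tested, and both had a mean above 0 (median 0.37). IFNG and PAG6 of the trophoblast list had a probe but did not pass the brightness filter. Of 7 T and NK cell markers 3 were tested, while CD2, CD3D, CD3E and CD8A did not pass the brightness filter. NKG7 and CD3G passed it through the orexin B channel only, so nothing is read from their means above 0. GZMB, well above background in both channels, had a mean of -0.042. All 4 tested fibroblast and stroma markers had a mean below 0 (median -0.41, array medians -0.02, -0.72, -0.0016 and -0.77). All 3 tested epithelial markers did so too, with array medians of 0.24, -0.35, -2.23 and 0.67. THY1 of the stroma list and CDH1 and CLDN4 of the epithelial list did not pass the brightness filter. The part of these cells in the CALR value was not tested. Calreticulin is made by most cell types.

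Calnexin (CANX), the membrane-bound counterpart of calreticulin, had an intensity of 7667, 17174, 7886 and 8717 with orexin B, against 7138, 8269, 10000 and 4345 without treatment on arrays 1 to 4. Its log2 ratios of 0.10, 1.05, -0.34 and 1.00 split by dye orientation, since arrays 2 and 4, with orexin B in Cy3, were near 1 and the others near or below 0. The mean was 0.45 ± 0.25, and it was 0.25 without replicate 2, 0.27 without replicate 4 and 0.72 without replicate 3. CANX had 1 probe. With median centring in place of loess its values were 1.00, -0.24, 0.23 and 0.42, without that split. Those values carry the shift of that centring, under which the median of tested probes was 0.52, -0.52, 0.34 and -0.29. The 7 smooth muscle markers also split between the same arrays, the other way, with array medians of -0.01, -1.15, 0.19 and -1.24. The part of smooth muscle cells in the CANX value was not tested.

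HSP90B1, the Hsp90 chaperone of the endoplasmic reticulum, which folds integrins and Toll-like receptors, was measured by 8 probes. Its brightest probe read 47344, 80063, 36493 and 33317 with orexin B, against 41652, 24037, 31381 and 20105 without treatment. The log2 ratios of that probe were 0.18, 1.74, 0.22 and 0.73, with a mean of 0.72 ± 0.26. The orexin B value was the higher one on each array, by far the most on array 2, and the groups overlapped.

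The 7 dimmer HSP90B1 probes were likewise highest on array 2, but 4 of them were below 0 on array 1. All 8 probes had means above 0, from 0.24 to 0.72, with a median of 0.49. Their values were 0.91 to 1.74 on array 2, 0.22 to 0.40 on array 3, 0.09 to 0.73 on array 4 and -0.35 to 0.46 on array 1. Without replicate 2 the brightest probe was 0.38 and the 8 means ran from 0.019 to 0.40. Array 2 was also the array with the widest ratios, with an SD over all tested probes of 0.52 against 0.31, 0.33 and 0.42 on arrays 1, 3 and 4. Within array 2 the 8 probes lay between percentiles 94.4 and 99.4. Agilent's processed signals gave the brightest probe 0.08, 1.84, 0.23 and 0.69. With median centring alone it had 1.35, 0.17, 0.99 and -0.10, highest on array 1, so the peak on array 2 was seen after loess and in the processed signals but not with that centring. Values with that centring carry the array shift given for CALR.

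At the brightest HSP90B1 probe the highest untreated value was 2.07 times the lowest. Over the 7 dimmer probes the highest untreated value was 1.14 to 1.39 times the lowest. Probes 7 and 8 were the member probes whose intensities did not overlap between the groups. Probe 7 read 7758, 14381, 7293 and 7265 with orexin B, against 6777, 5760, 5790 and 5164 without treatment. Probe 8 read 8363, 12803, 6893 and 6896 with orexin B, against 6087, 5790, 5443 and 5197 without. Over all tested probes, 1.16% had non-overlapping intensities with orexin B higher and 0.604% with orexin B lower.

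**Figure D2:**
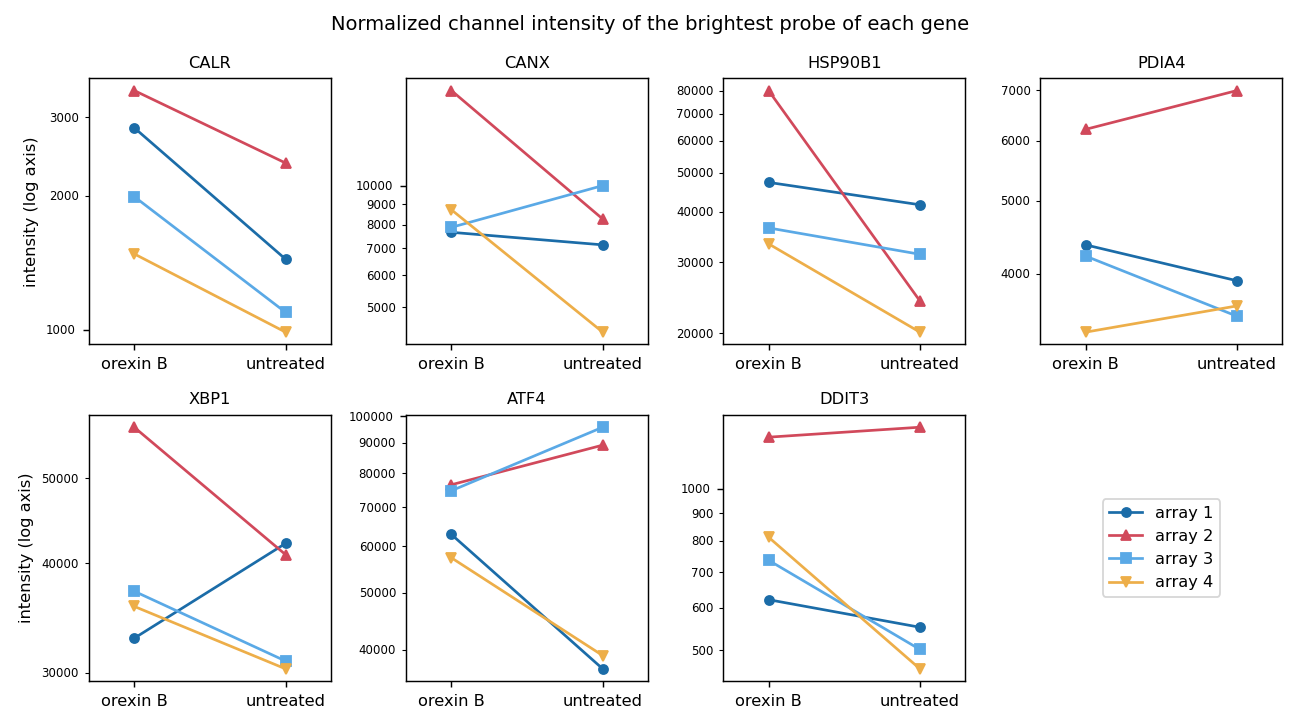
Normalized intensity (log axis, arbitrary units) of the brightest probe of each of the 7 genes in the orexin B channel (left) and the untreated channel (right), with a line for each of the 4 arrays. All CALR lines fall from left to right, the steepest HSP90B1 line is array 2, and the XBP1 and ATF4 lines run both ways.

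PDIA4 (ERp72), a disulfide isomerase with several thioredoxin-like domains, was the member closest to 0. It had 4366, 6214, 4219 and 3345 units with orexin B, against 3913, 6996, 3512 and 3624 without treatment. Its log2 ratios were 0.16, -0.17, 0.26 and -0.12, with a mean of 0.034 ± 0.13. The orexin B value was higher on arrays 1 and 3 and lower on arrays 2 and 4. The mean changed sign with median centring (-0.059), without replicate 1 (-0.0072) and without replicate 3 (-0.043).

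XBP1 is the transcription factor whose mRNA is spliced by the sensor IRE1, and the probes here are not known to tell the spliced form from the unspliced one. Its brightest probe read 32842, 57201, 37165 and 35712 with orexin B, against 42141, 40921, 30934 and 30305 without treatment. The log2 ratios were -0.36, 0.48, 0.26 and 0.24, with a mean of 0.16 ± 0.16. This probe was lower with orexin B on array 1 and higher on the other arrays.

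The 6 XBP1 probes showed 2 profiles after loess. The 2 brightest probes were lowest on array 1 (-0.36 and -0.54) and above 0 on arrays 2 to 4. The 4 dimmer probes were highest on array 3, at 0.63 to 0.76, and ran from -0.24 to 0.10 on arrays 2 and 4. Probe means were nevertheless close together, from 0.086 to 0.21. With median centring 4 of the 6 means were above 0, from -0.036 to 0.12, and all 6 probes were lowest on array 2, so the 2 profiles were not seen. Those array values carry the shift given for CALR. Without replicate 2 the brightest probe was 0.047 and without replicate 1 it was 0.33.

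ATF4, a transcription factor of the PERK branch that is controlled mainly at translation, read 62890, 76406, 74632 and 57394 with orexin B at its brightest probe, against 37147, 89228, 95717 and 39134 without treatment. The log2 ratios were 0.76, -0.22, -0.36 and 0.55, with a mean of 0.18 ± 0.21. Orexin B values were higher on arrays 1 and 4, where untreated levels were low, and lower on arrays 2 and 3.

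All 6 ATF4 probes lay between -0.38 and -0.17 on array 2 and between 0.44 and 0.64 on array 4. On array 1 they ran from 0.09 to 0.76, and on array 3 the brightest was at -0.36 and the other 5 at 0.08 to 0.31. Probe means ran from 0.14 to 0.29. Untreated ATF4 levels differed between arrays by 2.58- to 3.65-fold depending on the probe, more than for any HSP90B1 probe. With median centring the brightest probe had 1.94, -1.91, 0.55 and -0.39, still below 0 on array 2 but with arrays 3 and 4 changed in sign. These values too carry the array shift given for CALR. The mean of the brightest probe was -0.010 without replicate 1, 0.32 without replicate 2, 0.36 without replicate 3 and 0.059 without replicate 4.

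DDIT3 (CHOP), the transcription factor that links lasting unfolded protein stress to cell death, had the dimmest member probe. It read 622, 1249, 736 and 813 with orexin B, against 552, 1304, 502 and 462 without treatment. The log2 ratios were 0.17, -0.06, 0.55 and 0.82, with a mean of 0.37 ± 0.17. Orexin B values were higher on arrays 1, 3 and 4 and about level on array 2, and the groups overlapped. Without replicate 4 the mean was 0.22, and with Agilent's processed signals it was 0.55.

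**Figure D3:**
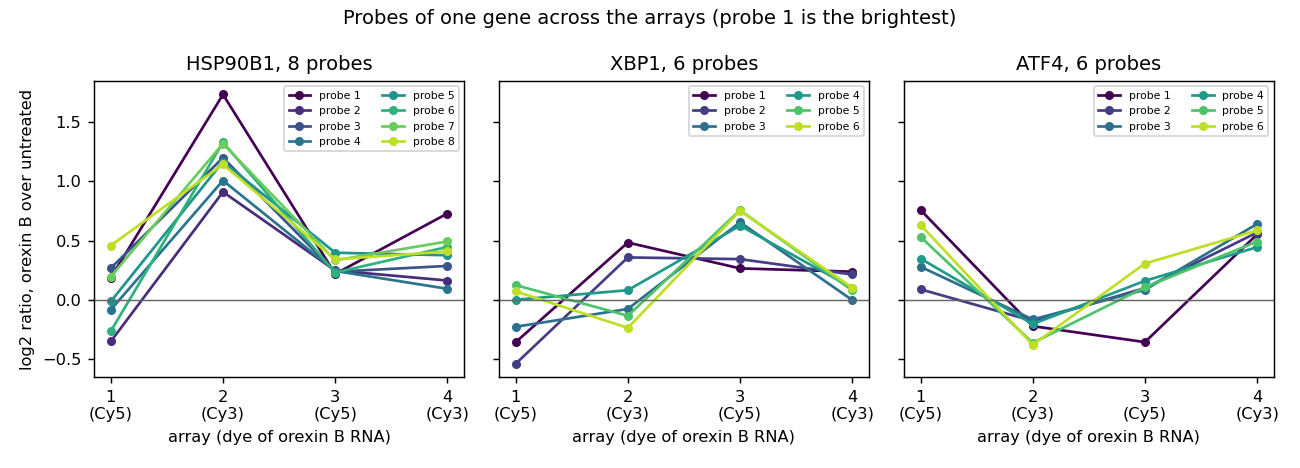
Log2 ratio of orexin B over untreated (y axis) on arrays 1 to 4 (x axis, with the dye of the orexin B RNA) for the probes of HSP90B1, XBP1 and ATF4, 1 line per probe. The 8 HSP90B1 lines peak on array 2, 4 XBP1 lines peak on array 3 at 0.63 to 0.76, and the ATF4 lines dip below 0 on array 2.

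The difference between the 2 dye orientations was not used to list the genes and was tested in limma with orientation as a term. It sets arrays 1 and 3 against arrays 2 and 4, so dye cannot be told apart from other differences between these arrays. CANX averaged -0.12 where orexin B was in Cy5 and 1.03 where it was in Cy3, an orientation difference of -1.15 (limma unadjusted p = 0.00262, adjusted p = 0.235). The brightest HSP90B1 probe had 0.20 in Cy5 and 1.23 in Cy3 (limma unadjusted p = 0.0227, adjusted p = 0.331). The other member probe at this level was HSP90B1 probe 6, with -0.019 in Cy5 and 0.89 in Cy3 (limma unadjusted p = 0.0379, adjusted p = 0.374). So 3 of the 24 member probes were under an unadjusted p of 0.05, against 12.5% of all probes, a share equal to the background, and 0 of 19879 probes passed after adjustment. CALR had 0.92 in Cy5 and 0.56 in Cy3 (limma adjusted p = 0.523), and DDIT3 had 0.36 in Cy5 and 0.38 in Cy3 (limma adjusted p = 0.988). All 8 HSP90B1 probes had the higher mean with orexin B in Cy3, as did the 2 brightest XBP1 probes, while the 4 dimmer XBP1 probes had the higher mean with orexin B in Cy5.

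**Figure D4:**
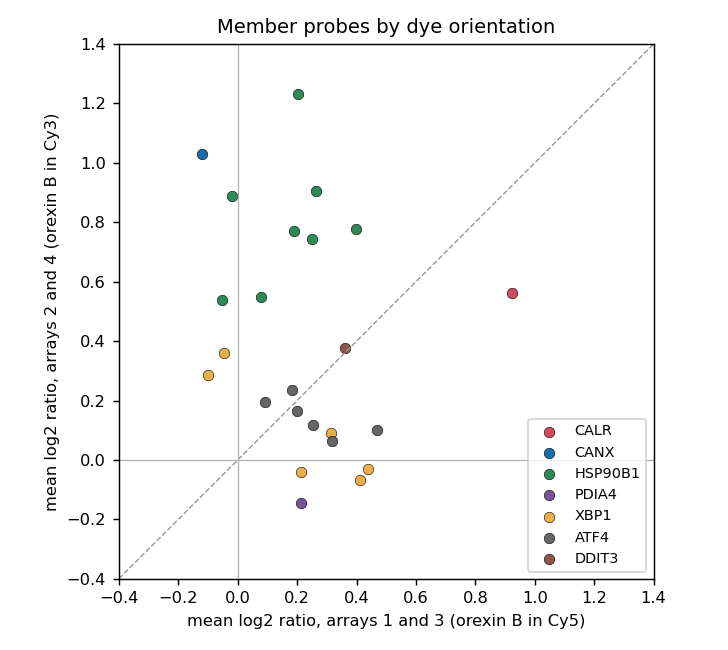
Mean log2 ratio of each of the 24 member probes on arrays 1 and 3 (x axis, orexin B in Cy5) and on arrays 2 and 4 (y axis, orexin B in Cy3), coloured by gene; the dashed line marks equal values. CALR lies at 0.92 and 0.56, CANX at -0.12 and 1.03, and all HSP90B1 probes lie above the line.

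Genes outside the list were set beside it in 7 lists of the same organelle, 185 genes in all, of which 50 had a probe and 44 were tested at their brightest probe. The lists were chosen with earlier results of these arrays known. Of the 44 genes, 28 had a mean above 0 and 16 below, where 53.8% of all tested genes were above 0. Their median was 0.11 against 0.02 over all tested genes. In both channels of all 4 arrays, 39 of the 44 were well above background. SEC61A1, SLN, STIM1, ORAI1 and BCL2L11 passed the brightness filter through the orexin B channel only. SEC61A1 and SLN are among the 28, and nothing is read from their means above 0. At an unadjusted p under 0.05 limma gave 3 higher and 1 lower, 9.09% of the 44, against 10.5% of all 1959 genes (6.23% higher and 4.24% lower), and 0 passed after adjustment. All 4 arrays were above 0 for 7 of the 44 genes and below 0 for 2, against 8.47% and 7.02% of all genes. The share at an unadjusted p was no larger than the background, and the counts above 0 were not tested.

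Of 8 tested chaperones and glycoprotein folding factors, 5 had a mean above 0 and 1 was under an unadjusted p of 0.05. That gene, DNAJB11 (ERdj3), the co-chaperone that brings clients to BiP, had log2 ratios of 0.40, 0.42, 0.14 and 0.17 and a mean of 0.29 ± 0.12 (limma adjusted p = 0.637), and all 3 of its probes had a mean above 0. The list median was 0.14. Among 4 tested disulfide enzymes the median was 0.15 and none was under an unadjusted p of 0.05. ERO1A, the oxidase that recharges protein disulfide isomerase, had 0.32, 0.21, 0.19 and 0.11 with a mean of 0.21 ± 0.11 (limma adjusted p = 0.708), and P4HA1, a collagen prolyl hydroxylase subunit that pairs with P4HB, had -0.18 ± 0.12 (limma adjusted p = 0.750), below 0 on all 4 arrays.

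Of 8 tested genes listed as sensors and targets of the unfolded protein response, 4 had a mean above 0 and the median was 0.016. The largest mean was that of EIF2AK2, at 0.82 ± 0.38 (limma adjusted p = 0.665), with -0.07, 2.31, -0.05 and 1.09 on arrays 1 to 4. EIF2AK2 was in the list but is none of the sensors IRE1, PERK and ATF6. TXNIP, the thioredoxin-interacting protein, was at 0.04, 1.41, 0.31 and 0.83 on arrays 1 to 4, a mean of 0.65 ± 0.22 (limma adjusted p = 0.596). All 7 of its probes had means above 0, and its mean was 0.39 without replicate 2. Like HSP90B1, it was highest on array 2. In the list for degradation of misfolded proteins (4 tested, median 0.055), none was under an unadjusted p of 0.05, and SELENOS, a membrane selenoprotein of the retrotranslocation complex, had 0.34 ± 0.15 (limma adjusted p = 0.645) and 0.21 without replicate 4.

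The list of the translocon, signal peptidase and oligosaccharyltransferase had 9 tested genes, 7 of them with a mean above 0 and a median of 0.20. DDOST, a subunit of the oligosaccharyltransferase, had 0.27, 0.17, 0.33 and 0.42 and a mean of 0.30 ± 0.11 (limma adjusted p = 0.621), and 0.19 with median centring. SSR1, a subunit of the translocon-associated complex, had -0.34, -0.54, -0.05 and -0.35 and a mean of -0.32 ± 0.13 (limma adjusted p = 0.626), with 3 of 3 probes below 0. SEC61A1, the pore of the translocon, had 0.20 ± 0.11 (limma adjusted p = 0.721) and 0.46 with Agilent's processed signals and, in the untreated channel, 3 of 4 arrays read it well above background.

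Of 8 tested genes of the calcium store, 4 had a mean above 0, the median was -0.0077 and none was under an unadjusted p of 0.05. SLN, STIM1 and ORAI1 passed the brightness filter through the orexin B channel only. The untreated channel read them well above background on 1, 2 and 3 of the 4 arrays. SLN, at 1.6e-04, is among the 4 above 0, and nothing is read from that. The 2 means furthest from 0 were those of RCN2 and ATP2A2. RCN2, a calcium-binding protein of the secretory pathway, was at 0.16 ± 0.15. ATP2A2 (SERCA2), the pump that fills the store, was at -0.14 ± 0.13. The 6 ATP2A2 probes did not share a direction, 3 of them having a mean below 0. Peptide loading of class I molecules, in which calreticulin and PDIA3 take part, had 3 tested genes with a median of 0.061, and TAP2, a peptide transporter subunit, had 0.11 ± 0.11 (limma adjusted p = 0.832).

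**Figure D5:**
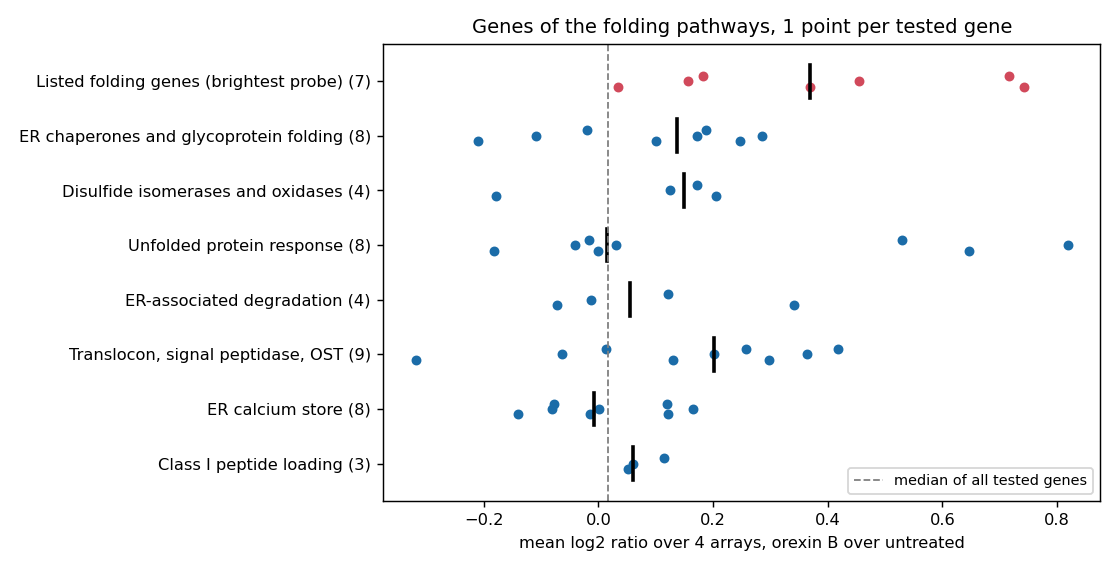
Mean log2 ratio over 4 arrays (x axis) of the 7 listed folding genes and of the tested genes of the 7 pathway lists (rows, number of genes in brackets), 1 point per gene at its brightest probe; black bars are medians and the dashed line is the median of all tested genes. The listed genes have a median of 0.37, and the pathway lists have medians between -0.0077 and 0.20.

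The genes with array values most like those of CALR were found by the root mean square difference of the 4 log2 ratios, over 1930 genes with all 4 values and outside the list, for which the median difference was 0.80. The nearest were PTBP1, an RNA-binding splicing regulator (0.18), C5AR1, the receptor for complement C5a on myeloid cells (0.19), FOLR1, a folate receptor (0.20), HIST1H2BD, a histone gene (0.21), FABP5, a fatty acid binding protein (0.27), and FCER1G, a signalling chain of Fc receptors (0.27). C5AR1 was at 1.14, 0.28, 1.00 and 0.40 on arrays 1 to 4, and FCER1G at 0.77, 0.19, 0.84 and 0.24. FCER1G is also one of the 8 tested macrophage markers. These genes were picked for their likeness to CALR, so their shared profile is no finding. Among the macrophage markers, CD163 at -0.03, 0.65, 0.75 and 1.05 and AIF1 at 0.36, 0.45, 0.86 and 0.86 were lowest on array 1. The others, such as TYROBP at 0.84, -0.03, 0.94 and 0.47, were lowest on array 2. CALR was also lowest there but by little, at 0.54 against 0.58 on array 4. Of the other listed genes DDIT3 was the closest to CALR and would rank at place 89, with a difference of 0.54. PDIA4 would rank at 526, ATF4 at 597, XBP1 at 725, HSP90B1 at 909 and CANX at 1024.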

How the data were processed

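From the deposited scanner output, the median spot intensity and the median local background of each dye were used; version 10.7.3.1 of Agilent Feature Extraction wrote them, per the file headers. The deposited files also give processed intensity values and a log10 ratio, Cy5 over Cy3. The deposited series table holds log2 ratios, of which at least 99.977% per array were within 0.01 of the processed signals after arrays 2 and 4 were sign-flipped, so the table is already orexin B over untreated, with no further centring; its column medians were -0.27, -0.08, -0.20 and -0.09. RNA was labelled at 825 ng cRNA per dye, per the labels. Ratios were turned by the dye label of each channel; the protocol text in the labels names 1 orientation only.

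Background was corrected with normexp (offset 50), and each array was then normalized with loess, giving control spots weight 0 (limma 3.58.1, R 4.3.3). Channel intensities were scaled between arrays on average brightness (Aquantile), which leaves ratios as they are. Spots marked as outliers (31 to 138 per array) were left out and spots of a probe averaged. A probe was tested if well above background on all 4 arrays in either channel, with unmarked spots on at least 3. There were 0 saturated probes. The mean ratio was tested with lmFit and eBayes, two-sided, with Benjamini-Hochberg adjustment over all tested probes; it was tested on simulated data. The labels give 4 gilts and 4 experiments, with duplicate cultures, so p-values reflect how these 4 arrays differ among themselves.

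Probe accessions, without version, were looked up among the RefSeq genes of Sscrofa11.1, which 6700 probes matched, 6599 of them to a symbol. The files name no genome build, so no coordinates are given. The members and lists were chosen with earlier results of these data known. Besides the members, up to 4 genes per list with all arrays on 1 side of 0 were named, smallest p first. Where a list had none, the 2 genes with the largest absolute mean were named. The 6 genes nearest to CALR were named too. Lists are described by counts and medians. Other settings covered background, normalization, source, filter, dye term, channel pairing and leaving out each replicate. Python 3.11.15 with matplotlib 3.10.9 made the figures.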

Additional observations from a re-analysis of the deposited data

Results flagged for a closer look

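Of 41 sets of 4 array values examined for 1 value far from the other 3, 4 were found where chance gives 2.05, and all 4 were probes of HSP90B1 or XBP1, which share RNA with the other probes of their gene. HSP90B1 probe 3 was at 1.20 on array 2 against 0.24 to 0.29 on the others, and HSP90B1 probe 8 at 1.14 on array 2 against 0.34 to 0.46. XBP1 probe 2 was at -0.54 on array 1 against 0.21 to 0.36, and XBP1 probe 4 at 0.63 on array 3 against -7.6e-04 to 0.10.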

How the results depend on the processing

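Over the 7 genes at their brightest probe, the mean log2 ratio kept its sign under every setting run except for ATF4, which was -0.010 to 0.36 with 1 replicate left out, and PDIA4, which was -0.043 to 0.10 with 1 left out and -0.059 with median centring. The count of member probes above 0 on all arrays was 5, and it was 0 with median centring, 8 with either the series table or the processed ratio, and 5 to 13 with 1 replicate left out, where 3 arrays are counted. The count of pathway genes at an unadjusted p under 0.05 in limma was 4, and it was 2 without background correction, 1 with median centring, 2 with the strict filter (39 genes tested), 8 with no filter (50 genes tested), 7 with a dye term, 0 with unlinked channels and 0 to 5 with 1 replicate left out, the 0 being without replicate 4. No setting gave a pathway gene past the adjusted threshold. With median centring 22 member probes and 10948 of all probes were under an unadjusted p of 0.05 for dye orientation, against 3 and 2494 after loess, and 9217 passed after adjustment against 0; loess removes a dye difference that depends on brightness, and median centring does not. List medians near 0 changed sign. That of the unfolded protein response was -0.036 with median centring, -8.1e-05 with no filter and -0.020 to 0.16 with 1 replicate left out. That of degradation was -0.0074 with median centring and -0.0081 to 0.21 with 1 left out. That of the calcium store was 0.0037 without background correction, 0.13 with processed ratios or the series table, 0.12 with the strict filter, 0.010 with the mean of a gene's probes and -0.026 to 0.061 with 1 left out. Class I peptide loading was -0.024 with median centring. The cause was not tested. Each ratio already pairs both channels of an array, and treating the channels as unlinked left the CALR mean at 0.74 with an error of 0.33 against 0.13. Beyond this pairing by array, no paired analysis was possible because the ratios form 1 group. Brightness does not limit the member probes, all well above background, and 4 arrays limit all means.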

Other observations

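Heat shock genes that act outside the endoplasmic reticulum had 9 tested members, 7 cytosolic or nuclear and 2 mitochondrial (HSPD1 and HSPE1). Of the 7, 1 had a mean above 0 and 6 below, and both mitochondrial genes were above 0. In limma's test 3 of the 9 were at an unadjusted p under 0.05, 1 higher and 2 lower, where all genes gave 10.5% (6.23% higher and 4.24% lower), and 0 passed after adjustment. DNAJB1, an Hsp70 co-chaperone, had log2 ratios of -0.47, -1.42, -0.84 and -0.32 and a mean of -0.76 ± 0.19. HSP70.2, an Hsp70 chaperone gene, had 0.01, -0.98, -0.60 and -1.20 with a mean of -0.69 ± 0.20. HSPD1, the mitochondrial chaperonin, had 0.47, 0.75, -0.06 and 0.62 with a mean of 0.45 ± 0.16. HSP90AA1 and HSP90AB1, the cytosolic relatives of HSP90B1, had means of 0.060 ± 0.12 and -0.017 ± 0.12. On array 2, where HSP90B1 was highest, they were at 0.04 and -0.19. These genes were named after their values were seen.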
